A study of Mus musculus with 8 samples.

Results

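The 10 genes described here encode neuronal cell adhesion molecules of the immunoglobulin superfamily: the sidekicks Sdk1 and Sdk2, the neural cell adhesion molecule Ncam2, the L1 family members Nrcam, Chl1 and Nfasc, the contactins Cntn1 and Cntn2, Cadm1 and Alcam. They were chosen by name, with earlier results on how they differ between neurons and stem cells known. Of the 10, 9 had at least 1 probe, 17 probes in all, on an array of 25697 probes. Cntn2 had no probe paired with it in the platform annotation and was not analysed here.

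Expression was compared between 3 arrays of neurons (Neuron 1 to 3) and 5 arrays of neural stem cells (NSC 1 to 5), all of strain C57BL/6. The NSCs were derived from mouse embryonic stem cells as a monolayer and were maintained in Euromed-N medium with N2, FGF2 and EGF. The neurons were the progeny of such NSCs after 4 days in N2B27 and replating in Neurobasal with B27, and were purified by flow cytometry for RedStar, a red fluorescent protein under the neuronal Tau promoter. The comparison asks how gene expression differs between stem cells and their neuronal progeny. No label says that the replicates of a group came from separate cultures, so the spread between arrays may be technical. Culture medium, sorting and position on the chip follow the group, so none of them can be told apart from cell type. In sorted bulk RNA, a change in the share of cells that express a gene and a change in RNA per cell cannot be told apart either.

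Adhesion molecules of this superfamily carry immunoglobulin domains outside the cell, in many cases with fibronectin type III domains, and bind the same or related molecules on neighbouring cells. L1 family members cross the membrane and bind ankyrin inside, which ties them to the spectrin skeleton. Contactins have no cytoplasmic part, are held by a lipid anchor and act with partners in the same membrane. Growing axons use these molecules to bundle, to read guidance cues and to choose synaptic partners.

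The arrays were alike in brightness, with median signals of 80.3 to 84.7 and 36.5% to 39.7% of probes above background (detection p below 0.01). Log2 signals correlated across probes, which are not independent replicates, at 0.993 to 0.994 within neurons, 0.993 to 0.994 within NSCs and 0.937 to 0.938 between the groups. Values below are background-corrected, quantile-normalized log2 signals, called levels, and differences are neuron minus NSC on that scale. The median SD of a gene was 0.14 in neurons (n = 3) and 0.16 in NSCs (n = 5). Of 13 neuron markers 6 were tested and all 6 were higher in neurons, among them Mapt, which encodes Tau (at least 17.1-fold on its brighter probe), Dcx (at least 13.7-fold) and the NeuN gene Rbfox3 (at least 13.0-fold). A second Mapt probe differed by 1.34, and the mean of both by 2.99 in place of 4.64. The rises were smaller for Syn1 (2.11), Map2 (0.81, with a mean of 11.12 in NSCs) and, near the floor, Gap43 (at least 1.09-fold). The other 7, Tubb3, Stmn2, Nefl, Nefm, Snap25, Elavl3 and Elavl4, did not reach background in neurons or in NSCs, so the neuronal label rests on part of its markers.

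Of the 9 genes with a probe, 8 had a probe above background on at least 3 arrays, the filter for testing. In the fit across all probes (limma, Benjamini-Hochberg adjusted p below 0.05), 7 of the 8 were higher in neurons, 0 were lower and 1, Nfasc, did not pass. Across the array 35.4% of 7407 genes tested were called higher, 29.2% lower and 64.6% in either direction, and 63.2% of 10499 probes. Of all genes called, 54.8% were higher in neurons, and 66.1% when arrays were scaled to a common median, where the median gene differed by 0.23 in place of 0.06. Because the genes were chosen with this contrast known, the count and the differences below are a description and no p-value is given for them. The 8 differences ran from 0.03 to 4.23 with a median of 1.34, beside a median of 0.06 over all genes tested. A called difference of at least 2-fold was seen for 4 of the 8, and for 22.4% of all genes tested. The groups did not overlap for 6 of the 8, against 61.1% of all genes tested, and in those 6 the neuron arrays lay above the NSC arrays, as in 33.2% of all genes. Alcam and, but for 1 NSC array, Ncam2 passed the filter through the neuron arrays, so a fall of either could not have been seen.

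**Figure D1:**
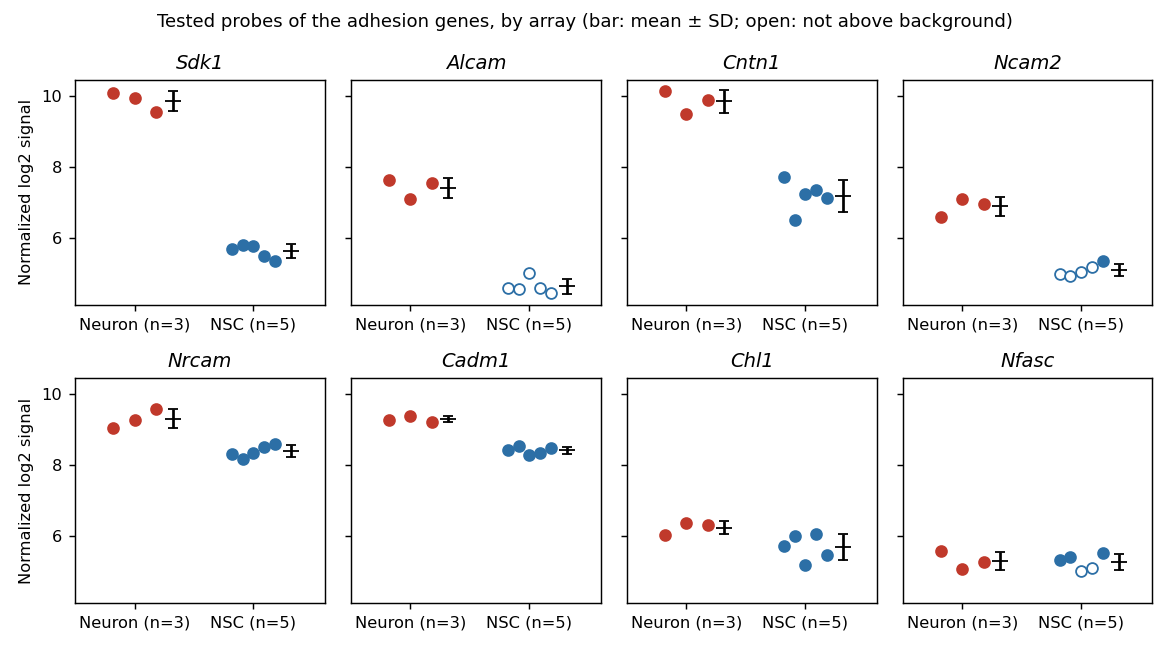
Normalized log2 signal (y axis) of the tested probe of each of 8 adhesion genes on 3 neuron arrays (left, red) and 5 NSC arrays (right, blue), 1 point per array, with the mean and SD of each group as a bar. The groups are apart for Sdk1, Alcam, Cntn1, Ncam2, Nrcam and Cadm1 and overlap for Chl1 and Nfasc, and open points mark arrays on which the probe was not above background.

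Of the sidekicks, Sdk1 had the largest difference of the 8 genes and Sdk2 could not be measured. Sdk1 and Sdk2 are long homophilic adhesion proteins that direct retinal neurons to matching synaptic layers. Sdk1 read 10.08, 9.92 and 9.55 in neurons 1 to 3, against 5.70, 5.81, 5.76, 5.48 and 5.36 in NSCs 1 to 5. It was above background on every array, but the NSC arrays lay close to the floor: the dimmest detected probe of an array read between 5.05 and 5.27. The means were 9.85 ± 0.28 (SD, n = 3) in neurons and 5.63 ± 0.19 (SD, n = 5) in NSCs, a difference of 4.23 or 18.7-fold. Only 17 of the 7407 genes tested had a larger positive difference.

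Sdk2, the close relative of Sdk1, has 3 probes and none was above background on a neuron array. Its brightest probe read 5.15, 4.92 and 4.74 in neurons, against 4.81, 4.64, 5.39, 4.94 and 4.81 in NSCs, and was above background on NSC 3 alone. A second probe was above background on NSC 5 alone, at 5.27, and the remaining probe on no array. The groups overlapped on all 3 probes, so the array set no level for Sdk2 in either cell type and no difference could be read.

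The promoter windows of both sidekicks were rich in CG dinucleotides, and that of Cntn1, the measured contactin of the group, was not. The windows shown run from 250 bases before to 50 bases after an annotated start, from RefSeq on GRCm38.p6, in the direction of transcription, with each CG in capitals. They are Sdk1 at chr5:141241284-141241583 on the plus strand, Sdk2 at chr11:114066980-114067279 on the minus strand and the first of 3 Cntn1 windows at chr15:92050915-92051214 on the plus strand.
Sdk1: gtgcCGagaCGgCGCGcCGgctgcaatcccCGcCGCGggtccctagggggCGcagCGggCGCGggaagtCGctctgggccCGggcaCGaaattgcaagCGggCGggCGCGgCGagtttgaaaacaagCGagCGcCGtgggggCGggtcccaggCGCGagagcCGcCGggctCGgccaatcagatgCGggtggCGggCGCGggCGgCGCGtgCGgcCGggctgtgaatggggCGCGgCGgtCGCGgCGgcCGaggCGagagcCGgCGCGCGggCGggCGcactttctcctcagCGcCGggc
Sdk2: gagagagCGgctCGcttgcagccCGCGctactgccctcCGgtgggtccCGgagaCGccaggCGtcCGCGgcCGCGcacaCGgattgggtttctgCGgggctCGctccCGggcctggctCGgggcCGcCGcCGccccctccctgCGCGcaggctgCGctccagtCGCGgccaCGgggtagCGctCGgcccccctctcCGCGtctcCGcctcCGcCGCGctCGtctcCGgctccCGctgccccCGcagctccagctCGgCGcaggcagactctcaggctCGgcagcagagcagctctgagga
Cntn1: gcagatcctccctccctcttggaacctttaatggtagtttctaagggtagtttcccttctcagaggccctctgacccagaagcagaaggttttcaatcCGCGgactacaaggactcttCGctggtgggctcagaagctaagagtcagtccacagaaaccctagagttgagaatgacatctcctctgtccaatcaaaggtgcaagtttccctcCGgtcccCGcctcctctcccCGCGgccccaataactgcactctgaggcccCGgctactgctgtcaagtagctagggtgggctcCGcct
The Sdk1 window held 54 CG dinucleotides and 99.7% of the 32851 windows in the table held fewer. The Sdk2 window held 41, as did that of Ncam2, and 96.5% held fewer. Nrcam had 37, Alcam 25, Chl1 and Cntn2 13 each, Cntn1 9, 5 and 4 in its 3 windows, and Nfasc 7 and 3 in its 2, beside a median of 7 over all windows. Cadm1 had no window in the table.

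Some short motifs known from neuronal gene regulation were searched in the windows. The sequence CAGCTG, a core of the E-box that proneural factors bind, occurred in 1 of 12 member windows, the second of Nfasc, and in 16.3% of all windows. CAGATG, another E-box core, occurred on either strand in 1 of 12, that of Sdk1, and in 17.2% of all. TTCAGCACC, the left part of the element bound by REST, occurred on either strand in 0 of 12 and in 0.371% of all. These are letter matches in 300 bases and say nothing of binding.

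Among the L1 family, Nrcam was higher in neurons, Chl1 slightly higher with overlapping arrays, and Nfasc near background in both groups. Nrcam, a receptor subunit for axon guidance cues that also gathers channels at nodes of Ranvier, read 9.04, 9.28 and 9.57 in neurons, against 8.32, 8.18, 8.34, 8.52 and 8.59 in NSCs. The means were 9.30 ± 0.27 (SD, n = 3) in neurons and 8.39 ± 0.16 (SD, n = 5) in NSCs, a difference of 0.91 or 1.88-fold. It was above background on all 8 arrays, so its transcript was detected in the stem cells too.

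Chl1, the close homologue of L1, which guides cortical axons and dendrites, has 4 probes, of which 1 was above background. That probe read 6.04, 6.38 and 6.31 in neurons, against 5.74, 6.00, 5.20, 6.07 and 5.48 in NSCs, a difference of 0.55. Neuron 1 lay below NSC 4, so the groups overlapped, and the SD in NSCs was 0.36 beside 0.18 in neurons. In the fit, its call ended without Neuron 2, Neuron 3 or NSC 5, and with no filter on dim probes. The other 3 probes were above background on no array and differed between the groups by -0.03 to 0.05.

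Nfasc encodes neurofascin, whose isoforms sit at the axon initial segment of neurons and on the glial side of the node. It also has 4 probes. The 1 tested read 5.58, 5.09 and 5.27 in neurons, against 5.34, 5.42, 5.02, 5.10 and 5.54 in NSCs, and was above background on 3 of 3 neuron arrays and 3 of 5 NSC arrays. The difference was 0.03, within the SDs of 0.25 in neurons and 0.22 in NSCs. The remaining probes were above background on no array. On 1 of them, at 4.80 ± 0.09 (SD, n = 3) in neurons and 4.56 ± 0.06 (SD, n = 5) in NSCs, all neuron arrays lay above the NSC arrays, but below the level of any detected probe.

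**Figure D2:**
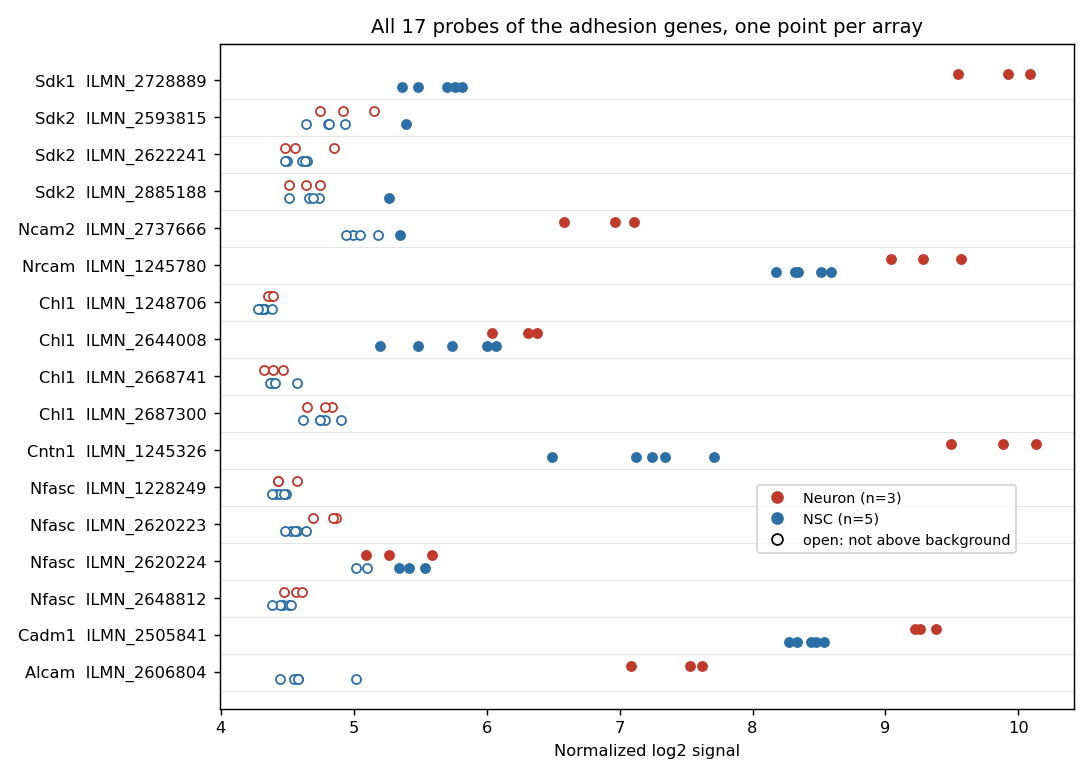
Normalized log2 signal (x axis) of all 17 probes of the adhesion genes (rows, with gene and probe name), with 3 neuron arrays in red above 5 NSC arrays in blue in each row. Filled points mark arrays on which the probe was above background; 9 of the 17 probes, those of Sdk2 and all but 1 each of Chl1 and Nfasc, did not reach 3 such arrays.

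Cntn1, the contactin that pairs with the Caspr protein at paranodes and with L1 family molecules on axons, was higher in neurons. It read 10.13, 9.49 and 9.88 in neurons, against 7.71, 6.49, 7.24, 7.34 and 7.12 in NSCs. The groups did not overlap, and NSC 2 was the lowest of the stem cell arrays. The means were 9.84 ± 0.32 (SD, n = 3) in neurons and 7.18 ± 0.44 (SD, n = 5) in NSCs, a difference of 2.65 or 6.30-fold. The SD of Cntn1 in NSCs was the largest among the 8 tested genes.

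Ncam2, a relative of NCAM known from olfactory axons, read 6.58, 7.11 and 6.96 in neurons, against 4.99, 4.94, 5.05, 5.18 and 5.35 in NSCs. It was above background on every neuron array and on NSC 5 alone among the stem cell arrays. The means of 6.88 ± 0.27 (SD, n = 3) in neurons and 5.10 ± 0.16 (SD, n = 5) in NSCs differed by 1.78. Ncam1, the founding NCAM gene and no member of the group, differed by 0.38 (SE 0.11, limma adjusted p = 0.00904). That holds for 1 of 2 Ncam1 probes: the other differed by -0.21 (limma adjusted p = 0.266), and the mean of both by 0.09 (limma adjusted p = 0.475).

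Cadm1, also called SynCAM, which joins the membranes on either side of a synapse, was above background on all 8 arrays. It read 9.26, 9.38 and 9.22 in neurons, against 8.44, 8.54, 8.27, 8.34 and 8.48 in NSCs. The difference of 0.88 or 1.83-fold was small beside that of Sdk1, but the replicates were close, with SDs of 0.08 in neurons and 0.11 in NSCs, and the groups did not overlap.

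Alcam, a homophilic adhesion molecule of growing axons that also binds CD6 on T cells, was seen in neurons alone. It read 7.62, 7.09 and 7.53 in neurons, against 4.58, 4.55, 5.02, 4.58 and 4.45 in NSCs, where it was above background on no array. Set against the lowest detected level of each NSC array, Alcam was at least 4.65-fold higher in neurons on the background-corrected scale. Its measured means of 7.41 in neurons and 4.64 in NSCs differed by 2.77. NSC 3 stood above the other stem cell arrays but still within the background.

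The sizes of the differences of dim genes depended on the background correction. Without it Alcam differed by 1.53 in place of 2.77, Ncam2 by 0.93 in place of 1.78, Chl1 by 0.28 in place of 0.55 and Sdk1 by 3.19 in place of 4.23. For Cntn1 the difference was 2.25, for Nrcam 0.81 and for Cadm1 0.78. Under every alternative tried these 7 genes stayed higher in neurons wherever they were tested, while the Nfasc difference lay between -0.10 and 0.14. Folds given as at least a value hold on the background-corrected scale alone. Without the correction, the 1.53 of Alcam lay below its bound of 4.65-fold.

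**Figure D3:**
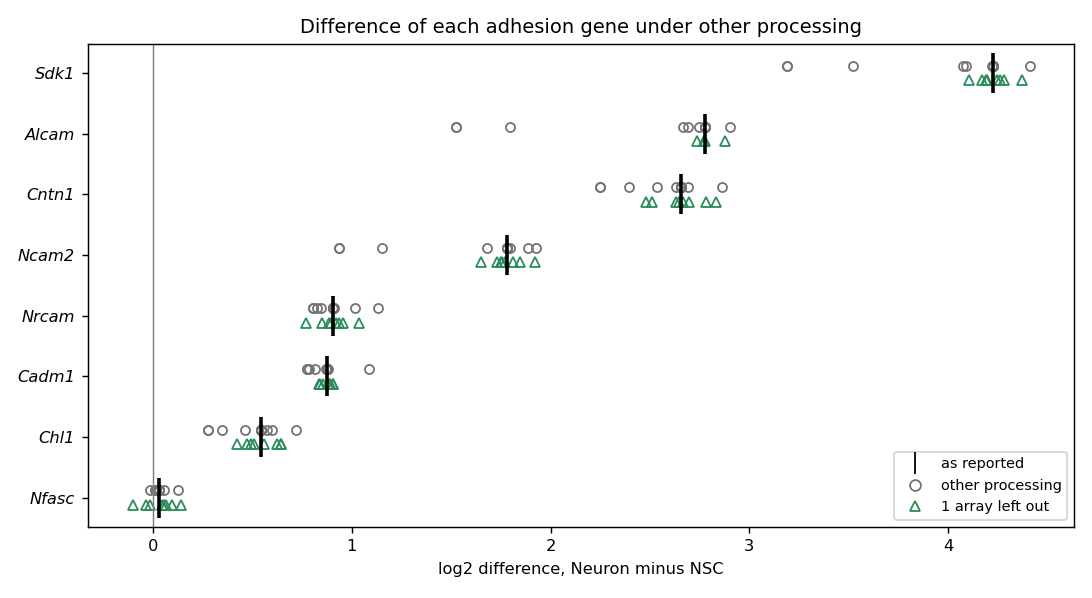
Neuron minus NSC log2 difference (x axis) of the 8 tested adhesion genes (rows), as reported (black bars), under other processing (grey circles) and with 1 array left out (green triangles). Points for Sdk1, Alcam, Cntn1, Ncam2, Nrcam, Cadm1 and Chl1 lie right of 0, and those of Nfasc lie on both sides of it.

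The patterns nearest to that of Sdk1 over the 8 arrays, by the mean absolute distance of centred log2 levels, were those of B3gat1 at 0.14, Scg2 at 0.19 and Slc24a3 at 0.20, with differences of 4.37, 4.58 and 4.21. B3gat1 makes the HNK-1 carbohydrate, Scg2 is a granin of dense-core vesicles and Slc24a3 a sodium/calcium exchanger. Nearest to the flat pattern of Nfasc were Rabif at 0.08, Stk38l at 0.09 and Ccdc120 at 0.09. For Sdk1 this distance mainly picks genes with a neuron minus NSC difference of like size, and shared regulation was not tested.

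Other adhesion genes of the superfamily moved both ways. Of 52 listed by family membership, 44 had a probe and 20 were tested. In neurons 7 were higher and 5 lower, and 8 did not pass, so 60.0% were called, beside 64.6% of all genes tested. Their median difference was 0.07. With detection on all 8 arrays 13 were tested, 4 higher and 3 lower, and without Neuron 2 or Neuron 3 the higher count was 4. Of the 20 tested, 2 were above background on neuron arrays alone, so a fall of these could not have been seen.

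Cntn6, another contactin, rose in neurons. It read 7.68, 7.31 and 7.72 in neurons, against 4.90, 4.74, 4.78, 4.88 and 4.78 in NSCs, where it was not above background. It was at least 5.19-fold higher in neurons (limma adjusted p = 3.31e-09). Igsf21, which binds neurexin at inhibitory synapses, rose by 2.22 (SE 0.12, limma adjusted p = 3.80e-08), and the IgLON gene Lsamp, a lipid-anchored adhesion molecule of the limbic system, by 1.78 (SE 0.17, limma adjusted p = 4.12e-06).

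The genes that fell most were those of Vcam1, which binds integrins and holds adult neural stem cells in their niche, Mcam, an adhesion molecule of vessels, and Kirrel3. Vcam1 read 5.24, 5.51 and 4.92 in neurons, against 6.27, 6.28, 6.70, 6.77 and 6.83 in NSCs, a difference of -1.35 (SE 0.17, limma adjusted p = 4.57e-05), and was above background on 2 of 3 neuron arrays. Mcam differed by -1.33 (SE 0.13, limma adjusted p = 4.32e-06) and Kirrel3, a synaptic adhesion gene, was lower with means of 5.07 in neurons and 6.07 in NSCs (SE of the difference 0.12, limma adjusted p = 2.18e-05), its probe being above background on 2 of 3 neuron arrays. Of the superfamily genes with a probe, 23 were above background on no array, among them L1cam, Dscam, Cntn3, Cntn4, Thy1 and Nectin1, and their levels were not set.

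**Figure D4:**
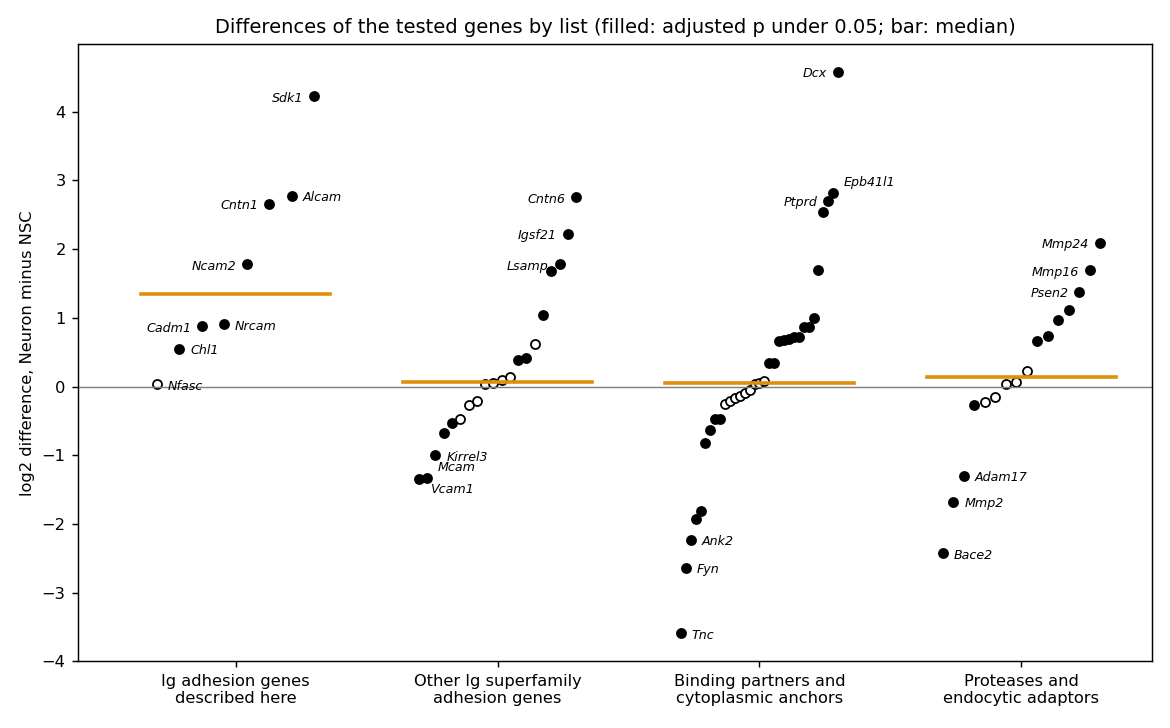
Neuron minus NSC log2 difference (y axis) of each tested gene in the 8 adhesion genes described here, 20 other immunoglobulin superfamily adhesion genes, 33 binding partners and anchors and 16 proteases and adaptors, with genes sorted within a list along the x axis. Filled points passed the fit over all probes and orange bars mark the medians of 1.34, 0.07, 0.05 and 0.14. The first list was chosen with its differences known, and the other lists with earlier results of these data known.

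Partners and cytoplasmic anchors of these molecules, listed by what they bind, also moved both ways. Of 48 with a probe 33 were tested: in neurons 15 were higher, 9 lower and 9 did not pass, with a median of 0.05. The share called was 72.7%, beside 64.6% of all genes tested. Over all genes tested, 35.4% were called higher and 29.2% lower. Without Neuron 3 the higher count was 9 of 29 tested. Of the 33, 4 (Dcx among them) were above background on neuron arrays alone and 1 on NSC arrays alone. For these a move the other way could not have been seen. The 3 that rose most were Dcx, whose protein doublecortin binds the neurofascin tail, Epb41l1 and Ptprd. Dcx read 8.92, 8.96 and 9.03 in neurons, against 4.37, 4.33, 4.34, 4.37 and 4.56 in NSCs, at least 13.7-fold higher (limma adjusted p = 2.42e-11). Epb41l1, a membrane skeleton protein, rose by 2.82 (SE 0.13, limma adjusted p = 7.11e-09) and the receptor phosphatase Ptprd by 2.70 (SE 0.14, limma adjusted p = 3.01e-08).

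The 3 that fell most were the matrix glycoprotein Tnc, a ligand of contactin, the kinase Fyn, which acts below contactin and NCAM, and the ankyrin Ank2. Tnc differed by -3.59 (SE 0.12, limma adjusted p = 5.42e-10), or by -2.20 with the mean of its 4 tested probes. Fyn differed by -2.64 (SE 0.13, limma adjusted p = 1.22e-08). Ank2 read 8.38, 8.04 and 7.98 in neurons, against 10.26, 10.17, 10.59, 10.54 and 10.25 in NSCs, a difference of -2.23 (SE 0.14, limma adjusted p = 9.21e-08), and its other 2 tested probes were lower as well, by -2.35 and -3.19. Ankyrins moved apart: Ank1 was at least 3.21-fold higher in neurons (limma adjusted p = 1.33e-09), and Ank3, the ankyrin of the axon initial segment, was above background on no array. The contactin partners Cntnap1, Cntnap2 and Cntnap4 were also above background on no array.

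Enzymes that shed adhesion molecules and adaptors that take them up were divided as well. Of 20 with a probe 16 were tested: in neurons 7 were higher, 4 lower and 5 did not pass, with a median of 0.14. The share called was 68.8%, beside 64.6% of all genes tested. Of the 16, 2 were above background on neuron arrays alone and 2 on NSC arrays alone. For these a move the other way could not have been seen. The 3 that rose most were the membrane metalloproteases Mmp24 (at least 3.34-fold, limma adjusted p = 4.34e-08) and Mmp16 (1.69, SE 0.11, limma adjusted p = 2.18e-07) and the gamma-secretase gene Psen2 (at least 2.24-fold, limma adjusted p = 1.17e-06).

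The 3 that fell most were Bace2, Mmp2 and Adam17. Bace2 was at least 3.64-fold lower in neurons (limma adjusted p = 2.26e-08) and Mmp2 at least 2.18-fold lower (limma adjusted p = 3.74e-07). Adam17, a sheddase of L1 family molecules and of Alcam, read 7.31, 7.46 and 7.49 in neurons, against 8.75, 8.58, 8.87, 8.65 and 8.71 in NSCs, a difference of -1.30 (SE 0.10, limma adjusted p = 7.10e-07). Bace1, the protease that cuts Chl1, rose by 1.12 (SE 0.19, limma adjusted p = 0.000375). Bace1, Ank1 and Ncam1 were named after their values were seen.

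Most tested markers of the oligodendrocyte lineage were higher in neurons, as were 35.4% of all genes tested. Nfasc, which did not pass here, and Cntn1, which was higher in neurons, are also expressed by oligodendrocytes. Of 10 tested markers 8 were higher in neurons, 1 lower and 1 did not pass, led by Gpr17 (at least 8.25-fold), Fa2h (at least 4.81-fold) and Pdgfra (at least 4.04-fold), while Opalin fell by 0.77. Of the 10, 4 were above background on neuron arrays alone, so a fall of these could not have been seen. The summed linear level of the list was 29009 to 31760 in neurons and 20895 to 24492 in NSCs. Olig1 (0.51) and Bcas1 (0.24) made up 91.4% to 93.2% of it in neurons and 94.9% to 96.1% in NSCs, and the other 8 summed to 2169 to 2492 in neurons and 965 to 1089 in NSCs. The myelin genes Mbp, Mog, Mag, Mobp and Cldn11 did not reach background in either group. What part oligodendrocyte precursors had in the adhesion gene levels was not tested.

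Most tested markers of the starting cells were lower in neurons, as were 29.2% of all genes tested. Of 10 tested NSC and radial glia markers 7 were lower in neurons, led by Tnc, Cd44 (at least 8.92-fold) and Hes1 (-2.30). Of the rest 1, Sox2, was higher at 0.37 and 2, Notch1 (0.56) and Nes (-0.16), did not pass. Their summed levels were 6799 to 7459 in neurons and 19321 to 20776 in NSCs. Slc1a3, with means of 11.95 in neurons and 13.77 in NSCs, was the brightest and weighed most in these sums. The NSC markers Pax6, Sox1 and Prom1 were above background on no array. The Sox2 call ended without Neuron 1 or NSC 5, and with cyclic loess or the mean of its probes. Of 4 tested astrocyte markers 3 were lower, Gja1 (-5.08), Acsbg1 (at least 23.2-fold) and Slc1a2. Gja1 was above background on 2 of 3 neuron arrays and Slc1a2 on 1 of 3. Gfap and Aqp4 were above background on no array, and summed levels were 133 to 138 in neurons and 2284 to 2540 in NSCs. Mesenchymal and pluripotency markers were tested for 3 of 11, Esrrb (at least 2.45-fold), Acta2 (-0.62) and Dppa5a (-0.43), all lower. Acta2 was above background on 1 of 3 neuron arrays. Summed levels were 98.7 to 122 in neurons and 185 to 212 in NSCs. Col1a1, Col3a1, Pou5f1 and Nanog were above background on no array. The Dppa5a call ended without Neuron 2, Neuron 3, NSC 1, NSC 2, NSC 4 or NSC 5, and with no background correction, the authors' values, median scaling or no filter.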

How the data were processed

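Illumina MouseRef-8 v2.0 arrays were read as mean bead intensity per probe, as the authors deposited it, and the values show that it was neither background-subtracted nor scaled. Beside it, per the file headers, stands a detection score, a fraction from 0 to 1, whose complement served here as a detection p. A table of log2 values that the authors deposited equalled the quantile-normalized log2 signals to within 5.00e-09, and limma is named in the submitters' processing notes.

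Signals were background-corrected from the detection p, offset by 16, quantile normalized and put on the log2 scale with neqc (limma 3.58.1, R 4.3.3). Quantile normalization sets each difference against the bulk of the probes, while the offset pulls differences of dim genes toward 0. Testing covered the 10499 of 25697 probes whose detection p was under 0.01 on 3 or more arrays, with lmFit and eBayes on group alone and Benjamini-Hochberg adjustment over all of them at 0.05. A gene was represented by its brightest tested probe. Platform annotation paired 23978 probes with 1 gene, 0 with several and 1719 with none; 23962 matched the RefSeq table by gene identifier. A probe above background in 1 group alone gives a bound: the bright group's mean against, per dim array, the higher of its own level and the lowest detected level. The bound holds on this background-corrected scale and can fail without the correction. Such a probe passed the filter through the bright group, so a difference the other way could not have been seen.

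The members and gene lists were chosen with earlier results of these data known. Named beside the members were, by rule, the 3 called genes that rose most and the 3 that fell most in each list, the 3 genes nearest in pattern to Sdk1 and to Nfasc, and Mapt. The genes named from a list were picked as called and by size, so their adjusted p-values are low by that choice. The procedure was tested on simulated signals. Replicate numbers shared by the titles gave no sign of pairing: same-numbered deviations correlated at -0.02, 0.01 and 0.01. So few pairs cannot show that same-numbered arrays were unrelated. The number of arrays limits precision.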

Additional observations from a re-analysis of the deposited data

Results flagged for a closer look

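The level of 1 NSC array stood apart from the other 4 in 8 of 44 genes looked at. For a gene taken alone, chance gives such a mark about 1 in 20 times. The genes were read on the same arrays, so the marks are not independent and their number was not tested. NSC 3 was high for Alcam (5.02, others 4.45 to 4.58, all below background), Gja1 (10.71, others 10.44 to 10.48), Cd44 (8.46, others 8.19 to 8.26) and Esrrb (6.67, others 6.29 to 6.39). NSC 5 was high for Dcx (4.56, others 4.33 to 4.37, all below background) and low for Sox2 (8.43, others 8.66 to 8.73). NSC 1 was high for Slc1a2 (6.68, others 5.85 to 6.04) and NSC 2 for Bace1 (8.21, others 7.37 to 7.54). The neuron group, with 3 arrays, was too small for this check.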

How the results depend on the processing

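Under the 12 alternatives that keep all arrays, the adhesion genes called ranged from 5 to 7, all higher in neurons. The count was 5 with detection on all 8 arrays, when Alcam, Ncam2 and Nfasc were not tested, and 6 with no filter, when Chl1 was not called. With 1 array left out it ranged from 5 to 7, the low value without Neuron 2 or Neuron 3, when Alcam was not tested and Chl1 not called. With detection on 2 arrays, chosen after seeing the data, those counts were 6 each, and 7 without Neuron 1. The count of lower adhesion genes was 0 in each case. Among other superfamily genes, detection on all 8 arrays gave 4 higher and 3 lower, since 13 were tested; no filter gave 10 higher and cyclic loess 7 lower. Leaving out 1 array gave 4 to 7 higher and 5 to 6 lower there, 9 to 15 higher and 9 to 10 lower among partners, 5 to 8 and 3 to 4 among proteases and adaptors, and 2879 to 3541 and 2734 to 2910 over all probes. With the replicate block, NSC 4 and NSC 5, which have no same-numbered neuron array, added nothing to the group difference. In that fit 7 adhesion genes, 7 and 5 other superfamily genes, 14 and 9 partners and 7 and 3 proteases were called higher and lower. Under the replicate block no count moved by over 1.5 times. That fit ended 2 calls, Sox2 (0.32, limma adjusted p = 0.108) and Dppa5a (-0.41, limma adjusted p = 0.0611), with 3301 and 2747 probes called higher and lower. No background correction changed the log2 difference, not the fold, by over 1.5 times for 4 of 8 adhesion genes and 21 of 36 other named genes. The 4 were Alcam, Chl1, Ncam2 and Nfasc, the last with a difference near 0 either way. Sdk1 was not among them, though its difference went from 4.23 to 3.19. Of these 8 and 36, no called gene reversed under an alternative in which it was tested; the genes named for a like pattern were not rerun. Differences of probes near background are limited by the floor.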
